A study of Mus musculus with 8 samples.

Results

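EMS404 is a mouse cell line, taken by the study to stand for hepatic stellate cells in their myofibroblastic state, and the 4 arrays described here are the control samples, titled EMS404 siCTRL and numbered 1 to 4, of 8 arrays in all. They were chosen by their titles, and no measured value entered the choice. Every siCTRL sample received a non-targeting siRNA at 20 nM by lipid transfection and was harvested 48 h later, so that what follows is the programme of transfected control cells, not that of untouched cells, which are not analysed here. The other 4 arrays received an siRNA against Bnc2 and are not compared here. The line is 1 source of cells. The study calls its replicates independent, but neither it nor the labels say what was kept apart (culture, passage or day), so the SD given throughout is the spread between 4 arrays and may be partly technical.

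Hepatic stellate cells are the vitamin A-storing pericytes of the liver sinusoid. On activation they lose their retinoid droplets and become myofibroblasts, contractile cells that lay down fibrillar collagen and the enzymes that cross-link it. Portal fibroblasts around the bile ducts and mesothelial cells of the liver capsule are the other mesenchymal cells of the liver from which matrix-producing cells can come, and each is known by a marker set of its own.

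Expression was read as log2 RMA values, a scale on which 1 unit is a doubling of the normalized fluorescence of a probe set. Each gene's value is the mean of the probe sets that carry its symbol alone, and the 22180 genes obtained were ranked by their mean over the 4 arrays. Genes of sensory neurons served as the dark reference. The 1105 odorant receptor genes had a median of 5.00, and their 95th percentile, 6.77, was taken as the background line. Of 323 vomeronasal and taste receptor genes, which did not set the line, 21 (6.50%) lay above it. In total 10080 of 22180 genes (45.4%) were above the line, and the brightest 10% of all genes (2218 genes) began at 12.40. These are called bright below, genes between the 2 limits intermediate, and the other 12100 genes at background.

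Probe sets differ in affinity, so a rank is not an amount of RNA, and a gene at background is one whose probe sets were dark, not one shown to be silent. Transcripts that every cell uses showed how far this reaches. All 23 measured housekeeping genes were above the line and 16 were bright, among them Eef2, Gapdh, Actb and Hprt. Yet Rps29, a ribosomal protein gene, had a mean of only 7.14 and Ldha, lactate dehydrogenase A, of 7.61, and Gnas, the stimulatory G protein subunit, was at background (5.58 ± 0.06, SD, n = 4). Some calls that change with the line chosen are marked where they are given, but not all of them. With the 75th percentile of odorant receptors as the line (5.59), background genes such as Postn, Col6a3, Fap and Pparg would pass. With the 99th percentile (8.06), genes such as Krt8, Lhx2, Nes and Zfhx4 would be at background. An unmarked call is therefore not one shown to hold under every line.

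The arrays resembled each other closely in level but not equally. Over the genes above the line, the Pearson correlation between any 2 arrays was 0.959 to 0.988, and 0.983 or more among replicates 1 to 3 (these are correlations across genes, which are not independent replicates). Replicate 4 stood apart, with a median correlation of 0.967 with the other arrays. The first component of the spread, 60.3% of it, placed replicate 4 at 0.84 and the other arrays between -0.48 and -0.12. For this reason counts of genes with a large spread are given with and without replicate 4.

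At the top of the ranking stood transcripts of general abundance together with a few of the mesenchymal state. Of the 20 brightest genes, 9 encode proteins of the mitochondrial respiratory chain from the mitochondrial genome (ND4, CYTB and COX1 lead), and Rn7sk, Mir5099, Rpl28, Rps6, Rpl15, Fth1 and Cox6a1 are also among them. The remaining 4 were B2m, the light chain of MHC class I, Fn1, fibronectin, Lgals1, galectin-1, and Col1a1, the alpha-1 chain of type I collagen. Fn1 read 18.46, 18.64, 18.86 and 18.75 in replicates 1 to 4, rank 14. Col1a1 read 18.00, 17.98, 18.53 and 18.45, rank 20 of all genes, with a small spread between the arrays (SD 0.29).

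Of the 4 markers set for the line, Col1a1, Acta2 and Bnc1 were bright and Bnc2 was intermediate. Acta2, smooth muscle alpha-actin and the classical myofibroblast marker, read 15.54, 16.67, 15.90 and 14.08. It was bright on every array, but its range of 2.59 log2 units, with replicate 4 lowest, was the widest of the 4 markers. Bnc1, a zinc-finger transcription factor of epithelia and mesothelium, read 14.04, 14.02, 14.52 and 14.85, and its relative Bnc2 read 8.26, 8.41, 8.37 and 9.03, with replicate 4 highest for both.

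**Figure D1:**
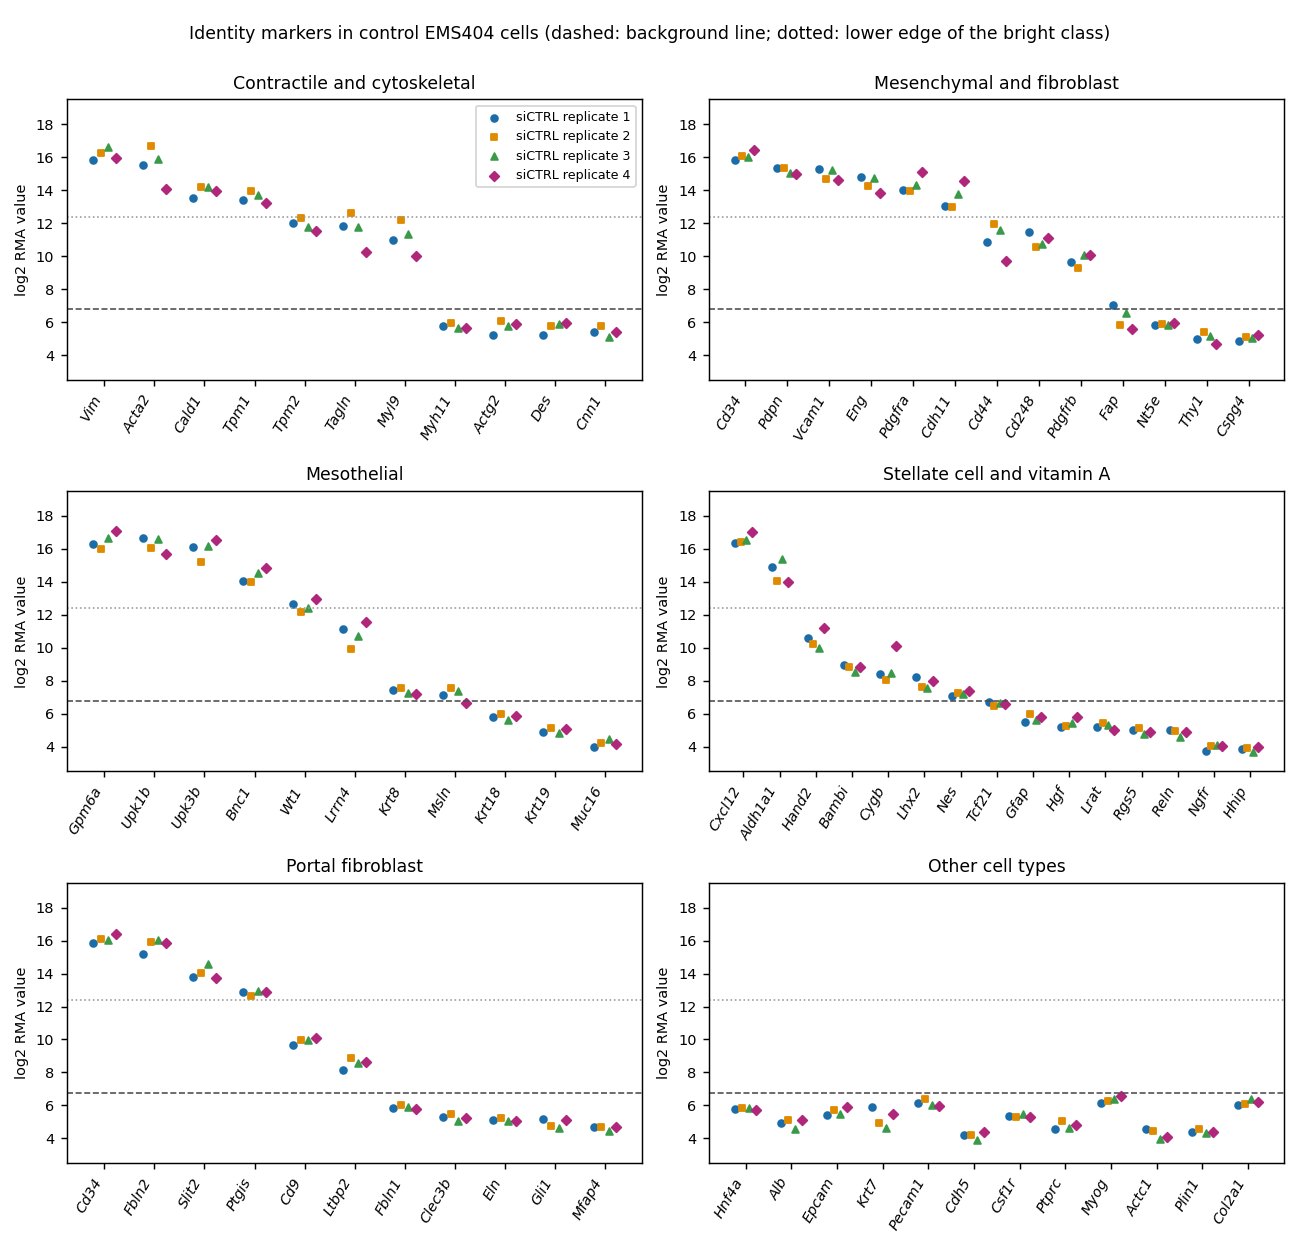
Log2 RMA values (y axis) of identity markers (x axis) in 6 panels, with 1 point per siCTRL array, a dashed line at the background line (6.77) and a dotted line at 12.40, the lower edge of the bright class. Acta2, Pdgfra, Gpm6a, Upk1b, Upk3b and Cxcl12 lie above the dotted line on all 4 arrays, while Des, Cnn1, Thy1, Lrat, Reln, Ngfr and Hhip lie below the dashed line on all 4, as do all 12 markers of the last panel.

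Genes of the contractile apparatus were mostly above the line, apart from several smooth muscle genes that were dark. Of 29 measured contractile and cytoskeletal genes, 13 were bright, 9 intermediate and 7 at background, which is 75.9% above the line against 45.4% of all genes. The bright members included Vim, vimentin (16.18 ± 0.35), Actn1, alpha-actinin (15.90 ± 0.33), the non-muscle myosin heavy chain Myh9 (15.80 ± 0.33), Cald1, caldesmon (13.96 ± 0.31) and Tpm1, tropomyosin (13.58 ± 0.32). Tagln, transgelin, and Myl9, the regulatory myosin light chain, were intermediate, at 11.61 ± 1.01 and 11.13 ± 0.91. At background were Des, the intermediate filament desmin (5.23, 5.77, 5.86 and 5.93), Cnn1, calponin (5.41, 5.78, 5.11 and 5.38), Myh11, smooth muscle myosin (5.76 ± 0.14) and Actg2, enteric gamma-actin (5.74 ± 0.37). Des and Cnn1 thus stayed under the line on each array, in the same cells in which Acta2 was among the brightest 260 genes. The study stained this line with antibodies to desmin and ACTA2 and states that its myofibroblast markers were properly expressed. A dark Des probe set therefore does not show that these cells lack desmin. Des, Actg2 and Myh11 would count as above background with a lower line, at the 75th percentile of odorant receptors (5.59), whereas Cnn1 would not.

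General mesenchymal markers were mostly present, with a sharp split inside the list. Of 24 measured, 8 were bright, 9 intermediate and 7 at background. Among the bright ones were Dcn, decorin (17.01 ± 0.52), Cd34, a sialomucin of fibroblast progenitors and endothelium (16.09 ± 0.24), Pdpn, podoplanin (15.18 ± 0.21), Vcam1 (14.94 ± 0.35) and Eng, the TGF-beta co-receptor endoglin (14.40 ± 0.46). Pdgfra, receptor of PDGF-A and of fibroblasts in most organs, read 14.01, 13.96, 14.34 and 15.11, while Pdgfrb, the receptor of pericytes and stellate cells, was intermediate at 9.64, 9.26, 10.04 and 10.08. At background were Thy1, a marker of portal fibroblasts and of many cultured fibroblasts (4.99, 5.38, 5.17 and 4.70), Cspg4, the NG2 proteoglycan of pericytes (5.05 ± 0.15), Nt5e, the ectonucleotidase CD73 (5.88), Lum, lumican (4.83), and Fap, fibroblast activation protein (6.25 ± 0.68). Fap was the least uniform of these, reading 7.06 in replicate 1, above the line, and 5.56 to 6.57 on the other 3 arrays.

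Mesothelial markers were largely present. Of 17 measured, 7 were bright, 7 intermediate and 3 at background, 82.4% above the line and 41.2% bright against 45.4% and 10% of all genes. This list, like the others here, was chosen with earlier results of these data known. Such shares therefore describe the list and are not an independent test of it. Gpm6a, a neuronal and mesothelial membrane glycoprotein, read 16.28, 16.01, 16.65 and 17.07. The uroplakins Upk1b and Upk3b, membrane proteins of urothelium and mesothelium, read 16.63, 16.05, 16.59 and 15.67, and 16.14, 15.20, 16.15 and 16.53. All 3 genes were among the brightest 185 of 22180 on the 4-array mean, and none of their 12 values was below 15.20. Wt1, the Wilms tumour transcription factor of mesothelium, read 12.67, 12.16, 12.39 and 12.96, and Lrrn4, a leucine-rich repeat protein of mesothelium, averaged 10.84 ± 0.71. The epithelial side of the same list was dim. Msln, mesothelin, was only just above the line (7.15, 7.55, 7.40 and 6.67, with replicate 4 below it, so that it failed where each array had to pass its own line), Krt8 was at 7.36 ± 0.16, and Krt18 (5.83), Krt19 (4.99) and Muc16 (4.20), the keratins and mucin of the mesothelial surface, were at background.

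Stellate cell markers were divided, and Lrat, Reln, Ngfr and Hhip were dark on every array. Of 37 measured stellate cell and vitamin A genes, 2 were bright, 12 intermediate and 23 at background, so that 37.8% were above the line, near the 45.4% of all genes. The bright ones were Cxcl12, a chemokine of stromal cells in general (16.34, 16.43, 16.56 and 17.00), and Aldh1a1, a retinaldehyde dehydrogenase (14.89, 14.05, 15.36 and 14.01). Lrat, which esterifies retinol for storage and is the reference marker of stellate cells, read 5.22, 5.41, 5.29 and 5.03. Reln, Ngfr and Hhip, used in mouse liver to tell stellate cells from other mesenchyme, averaged 4.86 ± 0.18, 3.99 ± 0.17 and 3.86 ± 0.12, and Gfap, Hgf, Rgs5, Ednrb and Pparg were also at background. None of these 9 genes exceeded 6.77 on any array. Stellate cell transcription factors gave a mixed reading, with Hand2 at 10.50 ± 0.55 and Lhx2 at 7.84 ± 0.32 above the line and Tcf21 at 6.62 ± 0.12 just under it, a call that turned with the 75th percentile of odorant receptors as the line. Cygb, cytoglobin, read 8.44, 8.02, 8.47 and 10.09, with replicate 4 separated from the rest, and Nes, nestin, was at 7.23.

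Portal fibroblast markers were divided in the same way. Of 16 measured, 4 were bright, 2 intermediate and 10 at background (37.5% above the line). Fbln2, fibulin-2, read 15.18, 15.90, 16.01 and 15.87, and Slit2, a guidance ligand, averaged 14.03 ± 0.38. Eln, elastin, was dark (5.14, 5.26, 5.04 and 5.05), as were Mfap4, a microfibril protein (4.63), Gli1 (4.94), Clec3b (5.27) and Dpp4 (4.99). Type I collagen, Acta2 and most general contractile genes were above the line, which meets the label of myofibroblastic stellate cells in part. Of the stellate genes, Lrat, Reln, Ngfr and Hhip were dark, while Cxcl12, Aldh1a1, Hand2, Cygb and Lhx2 were above the line. Retinoid droplets are lost on activation, so a dark Lrat does not by itself set these cells apart from activated stellate cells. The mesothelial markers Gpm6a, Upk1b and Upk3b were among the brightest genes on the array, but Krt18, Krt19 and Muc16 were at background. The origin of the line was not tested. No further cell type name is given here.

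Transcripts of other cell types were mostly at background. None of 19 hepatocyte, 18 endothelial and 14 cartilage and bone genes was above the line, including Alb (4.94), Hnf4a (5.79), Pecam1 (6.13), Cdh5 (4.20) and Col2a1 (6.18). Of 15 cholangiocyte and epithelial markers, Muc1 (7.29 ± 0.41) and Sox9 (6.92 ± 0.45) were above it, while Epcam, Cdh1 and Krt7 were not. Sox9 was at background without replicate 1, which left 1 gene of this list, and neither gene passed where each array had to pass its own line. Of 21 macrophage and leukocyte markers 3 passed, Cd14, the endotoxin co-receptor (9.71 ± 0.23), Cd68, a lysosomal protein (8.79 ± 0.56) and Marco (6.87, at background with vomeronasal and taste receptors as the line), with Ptprc (4.77), Csf1r (5.36) and Adgre1 (4.45) dark. Of 10 adipocyte genes, Lpl, lipoprotein lipase (10.23 ± 0.78), and Fabp4 (7.26) were above the line, and of 16 striated muscle genes Acta1, Tnnc1 and Tnnt2 were. The mean level over a list varied little between arrays, from 5.77 to 6.08 for the adipocyte genes, the widest range of these lists, and from 5.51 to 5.68 for the macrophage and leukocyte genes. In a bulk culture a few cells of another type and low RNA in every cell cannot be told apart.

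**Figure D2:**
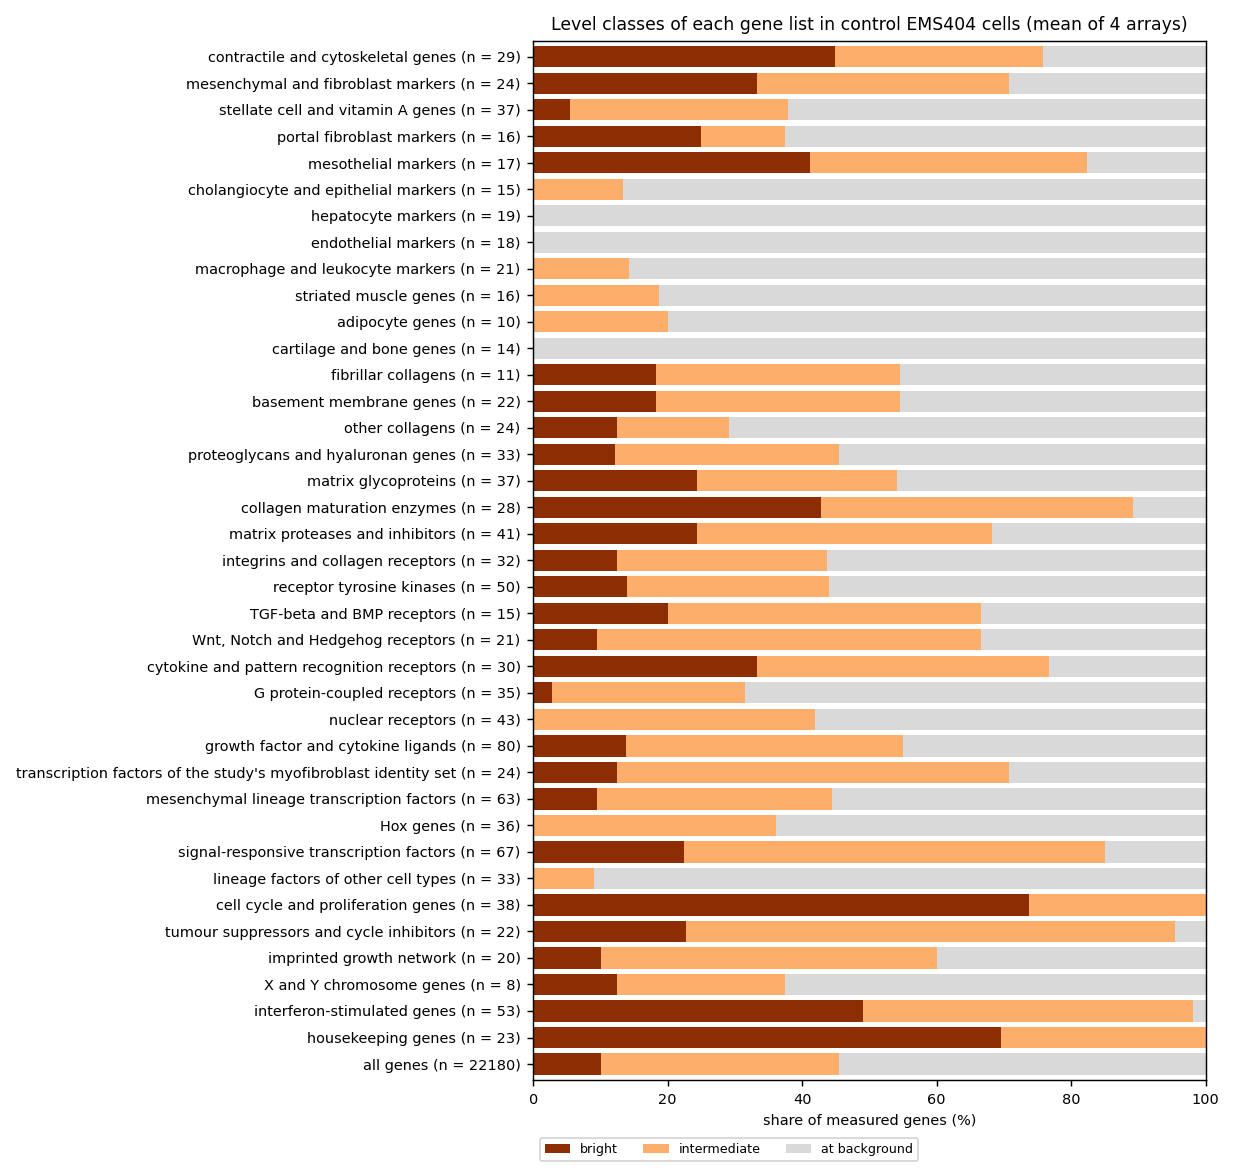
Share of the measured genes of each list (x axis, percent) that were bright, intermediate or at background on the mean of 4 siCTRL arrays, with all 22180 genes in the last row. Cell cycle, housekeeping and interferon-stimulated genes have the largest bright shares, mesothelial markers reach 41.2% bright, and hepatocyte, endothelial and cartilage lists have no gene above the background line.

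In the matrix programme type I collagen and fibronectin were bright, while periostin, elastin and many minor collagens were dark. Above the line were 54.5% of fibrillar collagens and 54.5% of basement membrane genes, against 45.4% of all genes. The share was 45.5% for proteoglycans, 29.2% for other collagens and 68.3% for proteases and inhibitors. Of 11 fibrillar collagen genes, 2 were bright, Col1a1 and Col1a2 (14.99 ± 0.28), and 4 intermediate, with Col3a1 at 11.90, 11.95, 12.82 and 12.84, Col5a2 at 12.04 ± 0.46 and Col5a1 at 8.76 ± 0.34. Col11a1 and Col5a3 were at background. Among 24 other collagens, type VI alpha-1 and alpha-2 (Col6a1, 14.04 ± 0.53, and Col6a2, 13.05 ± 0.61) were bright while the third chain of that collagen, Col6a3, read 6.17, 6.07, 5.82 and 6.02. These chains are known to assemble together, and whether the Col6a3 probe set reads its transcript was not tested. Col12a1, a fibril-associated collagen, was bright (13.20 ± 0.69), and 17 of the 24 were at background.

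Of 37 matrix glycoproteins, 9 were bright, 11 intermediate and 17 at background, 54.1% above the line against 45.4% of all genes. Fn1, Sparc, a collagen-binding glycoprotein (17.31 ± 0.23), Ccn1, a matricellular YAP target (16.49 ± 0.68), Efemp1 (16.19 ± 0.34), Thbs1, thrombospondin-1 (15.02 ± 0.70) and Tnc, tenascin-C (14.78 ± 0.48) led. Postn, periostin, read 5.29, 5.96, 6.14 and 5.87, and Thbs2 (5.09), Mfap5 (5.50), Eln and Tgfbi (6.34) were at background as well. Ccn2, connective tissue growth factor, was intermediate at 9.88, 10.11, 10.01 and 8.59. Proteoglycans followed a like pattern, with Dcn, Bgn, biglycan (15.91 ± 0.28), Sdc4, syndecan-4 (15.33 ± 0.19) and Ogn, osteoglycin (13.39 ± 0.58) bright, 11 of 33 intermediate and 18 at background.

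Basement membrane genes split by chain. Of 22 measured, 4 were bright, 8 intermediate and 10 at background. Lamc1, the common laminin gamma chain (14.28 ± 0.27), Hspg2, perlecan (13.58 ± 0.22), Nid1 and Nid2, the nidogens (13.41 ± 0.49 and 12.45 ± 0.49), were bright. Of the laminin alpha chains only Lama5 was above the line (11.58 ± 0.28), and Lama1, Lama2, Lama3 and Lama4 lay between 5.13 and 5.55. Col4a1 and Col4a2 were intermediate (11.94 ± 0.16 and 10.46 ± 0.16), and Col4a3 and Col4a4 at background.

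Most measured genes of the machinery that folds and cross-links collagen were above the line. Of 28 enzymes and chaperones of collagen maturation, 12 were bright, 13 intermediate and 3 at background, 89.3% above the line against 45.4% of all genes. A further 4 of the list, Loxl2, Plod3, Fkbp10 and Adamts2, had no value. P4hb, the beta subunit of prolyl 4-hydroxylase (16.99 ± 0.24), Lox, lysyl oxidase (16.03, 15.84, 16.47 and 16.41), Ppib, cyclophilin B (15.37 ± 0.21) and Serpinh1, the collagen chaperone HSP47 (14.56 ± 0.36) were among the highest, and Loxl4, Adamts14 and Adamts3 were dark. Of 41 proteases and inhibitors, 10 were bright, 18 intermediate and 13 at background, with Timp2 (17.05 ± 0.16), Timp3 (16.52 ± 0.24), the membrane collagenase Mmp14 (15.16 ± 0.10) and Timp1 (13.99 ± 0.41) bright, Mmp2 at 9.96 ± 0.33 and Mmp9 at background (4.75). Mmp13, interstitial collagenase of the mouse, had the largest spread of the matrix lists and read 12.79, 11.04, 11.78 and 9.86.

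Of 32 integrins and collagen receptors, which bind this matrix, 4 were bright, 10 intermediate and 18 at background, 43.8% above the line and 12.5% bright, near the 45.4% and 10% of all genes. Itgb1, the common beta-1 chain (15.87 ± 0.42), Ddr2, the fibrillar collagen receptor kinase (14.56 ± 0.30), Itga3, a laminin-binding chain (13.75 ± 0.30) and Dag1, dystroglycan (13.44 ± 0.50) were bright, and Itga5 and Itgav, which bind fibronectin, were intermediate (11.63 ± 0.26 and 10.73 ± 0.20). Itga8, a marker of stellate cells (5.25), Itga4, Itga9 and Itga2 were at background. Itga11, the collagen integrin of myofibroblasts, averaged 6.84 and was above the line with 4 arrays but not without replicate 4.

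Of 50 receptor tyrosine kinases, 7 were bright, 15 intermediate and 28 at background (44.0% above the line). The bright ones were Axl, receptor of GAS6 (15.52 ± 0.44), Ryk, Ddr2, Pdgfra, Egfr (13.99 ± 0.67), Met, receptor of hepatocyte growth factor (13.97 ± 0.25), and Epha2 (13.10 ± 0.52). Fgfr2 (11.80 ± 0.38), Igf1r (11.66 ± 0.39) and Fgfr1 (8.87 ± 0.30) were intermediate, and Kit, Kdr, Erbb3 and Csf1r dark. Among 15 TGF-beta and BMP receptors, Bmpr2 (15.46 ± 0.56), Eng and Bmpr1a (13.45 ± 0.18) were bright, 7 were intermediate, including Tgfbr2 (10.81, 10.66, 11.71 and 11.06) and Tgfbr1 (9.89 ± 0.20), and 5 were at background. Both chains of the TGF-beta receptor were thus above the line on all arrays.

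Of 21 Wnt, Notch and Hedgehog receptors, Smo, the Hedgehog transducer (13.24 ± 0.51), and Notch2 (12.71 ± 0.37) were bright and 12 intermediate. Notch1 and Notch3 were at background (6.36 and 6.02), as was Gli1, a target gene of Hedgehog signalling. Of 30 cytokine and pattern recognition receptors, 10 were bright, 13 intermediate and 7 at background (76.7% above the line). Il6st, the shared gp130 chain (15.88 ± 0.22), both chains of the type I interferon receptor, Ifnar1 (12.71 ± 0.20) and Ifnar2 (13.70 ± 0.24), and Tnfrsf1a (13.29 ± 0.27) were bright with SDs of 0.20 to 0.27. The sensors of double-stranded RNA Ifih1 (13.65 ± 1.91), Ddx58 (13.63 ± 1.36) and Tlr3 (12.44 ± 1.90) were bright with SDs above 1.

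G protein-coupled receptors were above the line less often than genes in general, 31.4% against 45.4%. Of 35 measured, only F2r, the thrombin receptor, was bright (15.60, 16.03, 15.83 and 15.60), 10 were intermediate and 24 at background. A further 10 listed receptors, among them Ednra, had no value. Agtr1a, the angiotensin receptor, averaged 8.14 ± 0.47 and Lpar1, a lysophosphatidic acid receptor, 8.14 ± 0.19, while S1pr3 (3.92) and Ednrb (5.24), the endothelin B receptor, were dark. None of 43 nuclear receptors was bright. Nr3c1, the glucocorticoid receptor, came nearest (12.19 ± 0.15). In all 18 were above the line, 41.9%, near the 45.4% of all genes. They included Nr2f2 (9.42 ± 0.26), Vdr (9.31 ± 0.45) and, at 8.24 ± 0.28, Nr1h4, the bile acid receptor FXR. Pparg, which marks the quiescent stellate cell, was at background.

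Of 80 growth factor and cytokine ligands, 11 were bright, 33 intermediate and 36 at background. Csf1 (15.32 ± 0.40), Sema3c (14.91 ± 0.40), Vegfa (13.35 ± 0.07) and Bmp4 (12.98 ± 0.67) were bright beside Cxcl12 and the chemokines Cxcl10, Ccl5 and Ccl2, whose spread is described below. All 3 TGF-beta ligands were above the line, Tgfb3 at 12.31 ± 0.36, Tgfb1 at 11.53 ± 0.25 and Tgfb2 at 11.06 ± 0.57. Grem1, a BMP antagonist of fibroblasts, averaged 11.67 ± 0.45 and Igf2 11.84 ± 0.81. Inhba (5.44), Il11 (4.87), Pdgfb (6.41), Il1b (4.52) and Tnf (5.12) were at background.

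Transcription factors (TFs) were read from several lists. Of the 24 measured TFs among the study's myofibroblast identity genes, 3 were bright, Creb3l1, a regulator of collagen secretion (14.04 ± 0.31), Foxf1, a forkhead factor of visceral mesoderm (13.32 ± 0.31) and Snai2 (12.41 ± 0.34), 14 were intermediate and 7 at background, 70.8% above the line against 45.4% of all genes. The study drew up that set from other data than these arrays. Prrx1 (10.58 ± 0.08), Osr1 (10.26 ± 0.13), Twist1 (10.20 ± 0.22) and Zfhx4 (7.45 ± 0.27) were intermediate. Twist2 (3.78), Tbx2 (4.58), Snai1 (4.68), Foxc2, Foxl1, Tbx3 and Trps1 (6.25) were at background. Tbx3 (6.02) and Trps1 would pass with the 75th percentile of odorant receptors as the line (5.59). The study silenced Foxc2 and Tbx3 in EMS404 cells and reports less type I collagen, so their background calls do not show that they are silent. Of all 124 measured genes of the study's identity set, 46 were bright, 57 intermediate and 21 at background.

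Among 63 TFs of mesenchymal lineages, 6 were bright, 22 intermediate and 35 at background, 44.4% above the line, near the share of all genes. The brightest was Gata6, a factor of lateral mesoderm and endoderm (14.48, 14.25, 14.32 and 15.20), followed by Bnc1, Foxp1, Foxf1, Wt1 and Snai2. Gata4 was at 8.81 ± 0.05, Tbx18 at 8.82 ± 0.10 and Tbx20 at 9.51 ± 0.13. Dark members of the list included Tbx5, Meox1, Meox2, Alx4, En1 and Msx2. Of 33 lineage factors of other cell types, 30 were at background. The 3 exceptions were Pax3, a factor of neural crest and muscle precursors, at 12.57, 12.49, 12.16 and 12.12, Foxa2, a pioneer factor of endoderm, at 10.23, 10.06, 9.79 and 10.54, and Sox9 at 6.92, which was at background without replicate 1. Pax3 was stable between arrays (SD 0.23), and neither Pax7 (5.69) nor the muscle factors Myod1 (5.95) and Myog (6.34) accompanied it above the line.

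**Figure D3:**
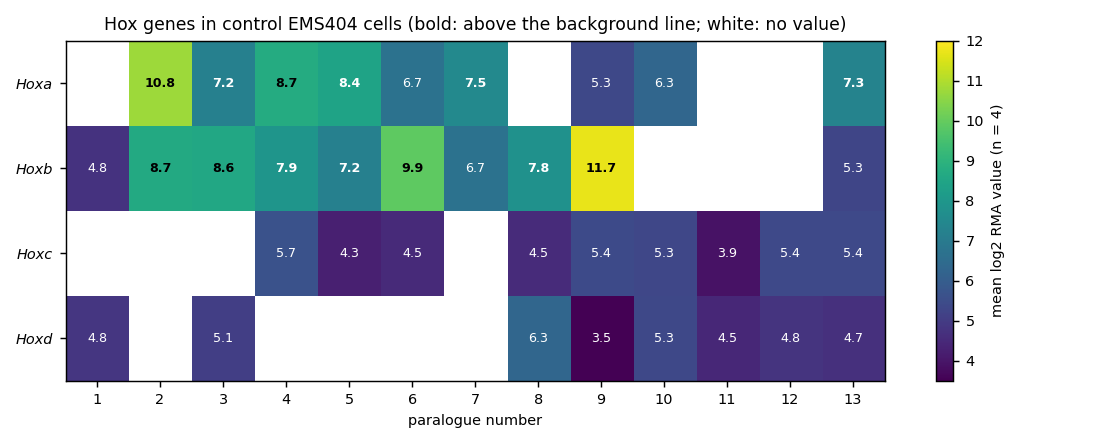
Mean log2 RMA value over 4 siCTRL arrays (number and colour) of each Hox gene, by cluster (rows) and paralogue number (x axis), with values above the background line of 6.77 in bold. Values above this line lie in the Hoxa and Hoxb rows, Hoxd8 passes lower lines, and none of the Hoxc or Hoxd genes passes 6.30.

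Hox genes, which record position along the body axis, were above the line of 6.77 in the Hoxa and Hoxb clusters only, but under lower lines Hoxd8 also passed (75th percentile of odorant receptors, 5.59, and 40th percentile of all genes, 5.65) and Hoxc4 passed the lower of these. Of 36 measured, 13 were intermediate and 23 at background, and none was bright. All 9 measured Hoxc and all 8 measured Hoxd genes were at background, the highest being Hoxd8 at 6.30. Hoxb9 was highest at 10.80, 12.26, 11.22 and 12.66, then Hoxa2 (10.77 ± 0.09), Hoxb6 (9.88 ± 0.39), Hoxa4 (8.72 ± 0.30), Hoxb2 (8.66 ± 0.17) and Hoxb3 (8.61 ± 0.44). Hoxa9 (5.34) and Hoxa10 (6.32) were at background, and the terminal gene Hoxa13 was at 7.29 ± 0.36. Under a stricter line, the 99th percentile of odorant receptors (8.06), Hoxa2, Hoxa4, Hoxa5, Hoxb2, Hoxb3, Hoxb6 and Hoxb9 remained above it and Hoxa13 did not. Hoxb9 and its neighbour Hoxb8 (7.27, 8.17, 7.06 and 8.70) had the largest spread of the list, and in both replicates 2 and 4 were above replicates 1 and 3.

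Of 67 signal-responsive TFs, 15 were bright, 42 intermediate and 10 at background (85.1% above the line). Rela (15.41 ± 0.24), Atf4 (15.18 ± 0.25), Stat3 (14.95 ± 0.22), Klf6 (13.95 ± 0.33), Myc (13.08 ± 0.50) and the TEAD factor Tead1 (13.01 ± 0.11) were bright. Srf, the actin-responsive factor, was at 11.92 ± 0.42 with its cofactor Mrtfa at 12.18 ± 0.17, and the YAP family members Wwtr1 and Yap1 at 11.67 ± 0.16 and 9.45 ± 0.19. Myocd, the myocardin of smooth muscle, was at background (4.82).

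Proliferation genes were bright. All 38 cell cycle genes were above the line and 28 were bright, 73.7% against 10% of all genes, with Pcna (16.78 ± 0.05), Top2a (15.73 ± 0.25) and Mki67 (14.93 ± 0.45) as examples. Of 22 tumour suppressors and cycle inhibitors only Cdkn1c was at background (5.18). Cdkn2a, often lost in immortal mouse lines, read 11.71, 11.36, 11.04 and 11.62, and Cdkn1a, the p53 target p21, 12.56, 12.30, 12.98 and 11.10. Among 20 imprinted genes, Dcn and Peg3 (12.80 ± 0.33) were bright and 10 were intermediate, while Meg3 (4.83) and Ndn (4.97) were at background. Xist, expressed from the inactive X of female cells, read 3.98, 4.04, 3.88 and 4.03, and the Y-linked Eif2s3y, Uty, Kdm5d and Zfy2 lay between 4.31 and 5.19. Transcripts of neither chromosome mark were therefore above the line, while the X-linked genes Ddx3x (14.29 ± 0.36), Kdm5c and Kdm6a were. Ddx3y, the Y-linked partner of Ddx3x, had no value.

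Most of this programme repeated closely from array to array. The median SD of the 10080 genes above the line was 0.25, and 933 of them (9.26%) had an SD over 0.5. Without replicate 4, 667 of 10059 (6.63%) did. Asxl2, Npepl1, Rchy1, Pawr and Ybx1 were among the 10 genes with the smallest SD, 0.02 or less. Of the identity lists, none of 6 portal fibroblast, 4 of 14 mesothelial, 4 of 14 stellate, 4 of 22 contractile and 6 of 17 mesenchymal genes above the line exceeded 0.5, shares of 0%, 28.6%, 28.6%, 18.2% and 35.3% against 9.26% of all genes above the line. Without replicate 4 these counts were 0 portal fibroblast, 3 mesothelial, 2 stellate, 2 contractile and 2 mesenchymal genes, so that replicate 4 decided much of the spread of the last 3 lists.

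**Figure D4:**
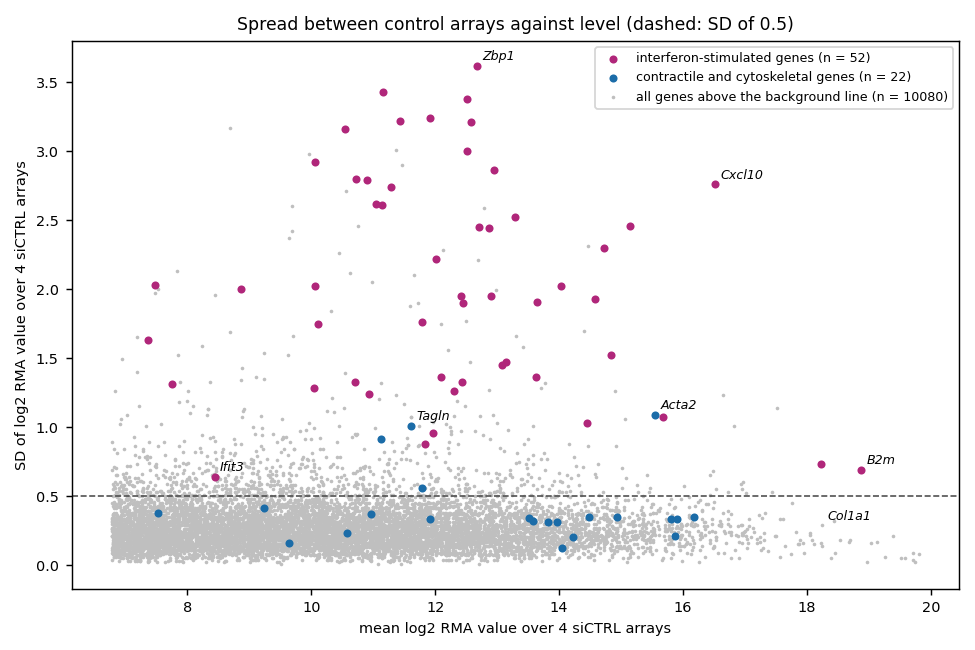
SD over the 4 siCTRL arrays (y axis) against the mean log2 RMA value (x axis) for the 10080 genes above the background line, with the dashed line at an SD of 0.5. The 52 interferon-stimulated genes lie above the dashed line throughout, while 18 of the 22 contractile genes lie below it and Acta2 and Tagln exceed 1.

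Interferon-stimulated genes were the least stable group of the programme. Such genes are switched on by type I interferon, or directly by sensors of foreign RNA, and encode antiviral and antigen-presenting proteins. Of 53 measured, 26 were bright, 26 intermediate and only Slfn5 at background, so that 98.1% were above the line against 45.4% of all genes. All 52 above the line had an SD over 0.5, with a median SD of 1.97 against 0.25 for all genes above the line. They also filled the top of the ranking by spread, with 15 of the 20 genes of largest SD belonging to the list. The other 5 were Gm12250, Gm4951, Ddx60, Phf11b and Gm7609. The list was drawn up with earlier results of these data known, so these counts describe it and are not an independent test of it.

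Zbp1, a sensor of Z-form nucleic acid, had the largest SD of all genes above the line and read 15.66, 12.29, 15.02 and 7.71 in replicates 1 to 4, a 248-fold range. Oas2, an oligoadenylate synthetase, read 15.04, 12.66, 14.67 and 7.70, and Usp18, which removes ISG15 from proteins, 14.38, 12.89, 15.08 and 7.96. Each of these genes was high in replicates 1 and 3, lower in replicate 2 and lowest in replicate 4. The same order held for Irf7, the interferon-induced regulator (15.20, 12.93, 14.75 and 8.91), for Rsad2, viperin (14.65, 12.83, 14.40 and 8.17), and for the chemokine Cxcl10 (18.54, 16.84, 18.15 and 12.52). Cxcl10 was thus far inside the bright class on replicate 1 and near its edge on replicate 4.

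Over the 52 genes, the median deviation from each gene's own 4-array mean was 1.63 in replicate 1, -0.07 in replicate 2, 1.39 in replicate 3 and -2.68 in replicate 4, against -0.07, -0.04, 0.06 and 0.05 over all genes above the line. Replicate 4 was the lowest array for 50 of the 52. The 2 others were Ifit3, lowest in replicate 2 (9.37, 7.95, 8.18 and 8.24), and Ifi27, whose order was turned round (10.93, 12.38, 11.24 and 12.76). Without replicate 4 the group still varied, with 47 of 52 genes over an SD of 0.5 and a median SD of 0.94, since replicate 2 stayed below replicates 1 and 3. Even in replicate 4 many members stayed bright, such as B2m (19.36, 19.07, 19.22 and 17.86), Ifitm3 (18.91, 18.22, 18.56 and 17.20) and Ifi204 (16.27, 15.66, 16.62 and 14.19), while Mx1 (9.37, 6.76, 8.81 and 4.93) crossed the background line between arrays. Several belong to families of similar sequence (Ifit, Oas, Gbp, Ifi200 genes), whose probe sets may share signal.

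**Figure D5:**
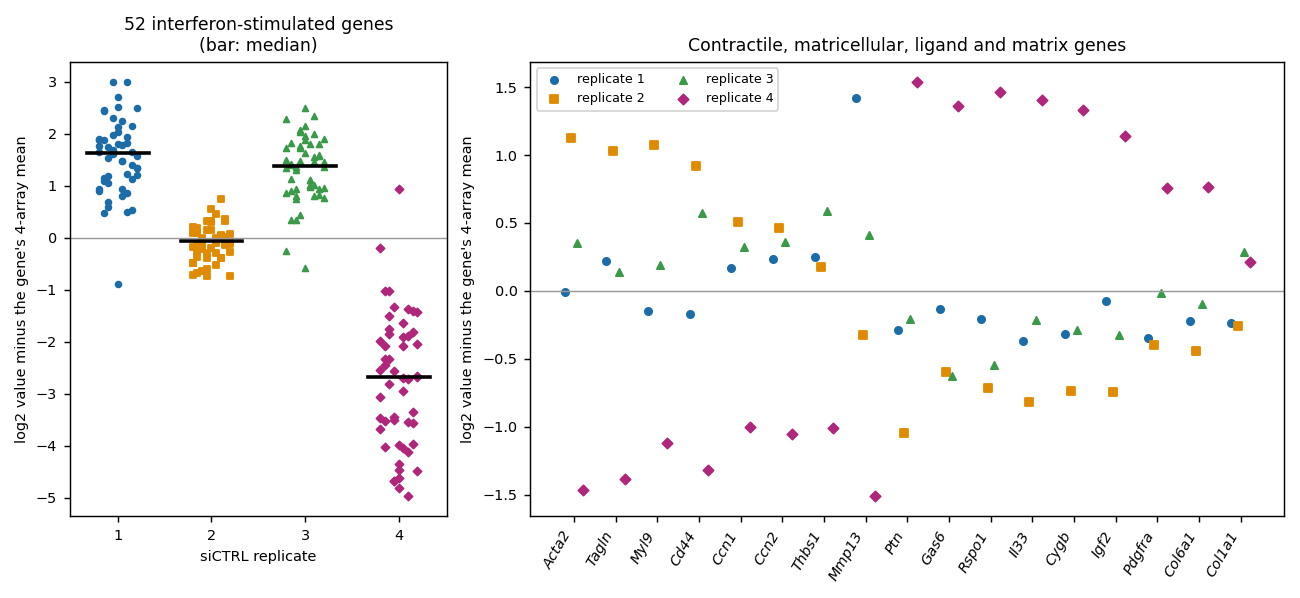
Left, log2 value minus the gene's own 4-array mean (y axis) for 52 interferon-stimulated genes in each siCTRL replicate (x axis), with the bar at the median (1.63, -0.07, 1.39 and -2.68 in replicates 1 to 4). Right, the same difference for single genes, where Acta2 to Mmp13 were lowest in replicate 4 and Ptn to Col6a1 highest in it, and Col1a1 differed little.

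Promoter stretches of these most variable genes are shown because the genes varied together between arrays. RefSeq promoters (build GRCm38.p6, 250 bases before to 50 after the start) were found for 14 of the 20 genes of largest SD, and 9 of those 14 genes (9 of 15 promoters, 60%) held GAAA, any 2 bases and GAAA again, the core of an interferon-stimulated response element, on either strand. Of all 32851 promoters, 3.44% held it. The STAT core TTCNNNGAA was in 2 of the 15 promoters (13.3%) and in 8.30% of all, and both of those promoters also held the first motif, the motifs being searched on either strand. Over the whole interferon list, the first motif was in 26 of 53 promoters (49.1%). A match of letters is a description and does not show that a factor binds there. The 5 stretches below are read 5′ to 3′ on the gene's own strand and lie wholly before the start site, with that motif or its reverse complement in capitals.
Gbp3, chr3:142559964-142560043, plus strand: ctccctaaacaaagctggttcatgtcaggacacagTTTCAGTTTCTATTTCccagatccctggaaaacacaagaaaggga
Rsad2, chr12:26456528-26456607, minus strand: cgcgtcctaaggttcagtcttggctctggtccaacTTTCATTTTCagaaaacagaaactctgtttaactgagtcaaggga
Ddx60, chr8:61928007-61928086, plus strand: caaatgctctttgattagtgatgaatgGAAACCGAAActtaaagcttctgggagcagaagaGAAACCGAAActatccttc
Cxcl10, chr5:92349058-92349137, minus strand: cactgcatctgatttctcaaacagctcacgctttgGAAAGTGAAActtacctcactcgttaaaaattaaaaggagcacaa
Ifit3b, chr19:34607768-34607847, plus strand: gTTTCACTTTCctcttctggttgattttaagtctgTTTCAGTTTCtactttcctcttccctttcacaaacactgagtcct
Ddx60 and Ifit3b each carried 2 separate copies and Gbp3 2 overlapping ones, and all 5 genes read lowest in replicate 4 and next lowest in replicate 2. Gbp3 read 13.05, 10.61, 12.45 and 6.06, and Ddx60 12.22, 9.64, 12.10 and 5.86, both under the background line in replicate 4 only.

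Ligands as a list had no common order, with 13 of 44 above the line highest in replicate 1, 17 highest in replicate 4 and 17 lowest in it. Over all 10080 genes above the line, 1984 were highest in replicate 1, and 33.7% were highest and 22.3% lowest in replicate 4. Among the ligands of largest spread, 4 cytokines outside the interferon list, picked after their values were seen, were highest in replicate 1 and lowest in replicate 4. Ccl2, a monocyte chemokine, read 15.90, 14.60, 15.11 and 11.98, Ccl7 13.74, 11.62, 12.45 and 8.79 and Il6 10.49, 8.43, 9.23 and 7.32, with replicate 2 below replicate 3 in each. Ccl5, a chemokine for T cells, read 16.07, 15.48, 15.30 and 11.05, with replicates 1 to 3 close together and replicate 4 far below. Of the 44 ligands above the line, 20 (45.5%) had an SD over 0.5, against 9.26% of all genes above the line. Without replicate 4 it was 7 ligands, beside 6.63% of all genes. The interferon receptor chains Ifnar1 and Ifnar2 had SDs of 0.20 and 0.24, and a link between them and these ligands was not tested. Of 23 housekeeping genes, 2 had an SD over 0.5, Tuba1b (13.45, 12.51, 11.18 and 11.56) and B2m, which is also in the interferon list.

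Contractile genes differed between arrays in another order. Of the 22 contractile genes above the line, 12 were lowest and none highest in replicate 4, against 22.3% lowest and 33.7% highest in replicate 4 over all genes above the line, and 13 of 22 were highest in replicate 2. Tagln read 11.83, 12.64, 11.75 and 10.23 and Myl9 10.98, 12.20, 11.32 and 10.01, the same order at the extremes as Acta2. Cd44, the hyaluronan receptor, read 10.86, 11.95, 11.60 and 9.71, and the matricellular genes Ccn1, Ccn2 and Thbs1, picked after their values were seen, were each lowest in replicate 4, where they read 15.49, 8.59 and 14.01, with the other 3 arrays close together. The matrix glycoproteins to which these 3 belong did not share this as a list, since 4 of the 20 above the line were lowest and 8 highest in replicate 4. Without replicate 4, 2 of the 22 contractile genes kept an SD over 0.5, Acta2 (0.58) and Myl9 (0.63), and Tagln was at 0.50.

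Other genes of the programme were highest in replicate 4, and the 4 named next were picked for this order. Ptn, pleiotrophin, read 12.65, 11.89, 12.73 and 14.47, Gas6, ligand of Axl, 10.59, 10.12, 10.09 and 12.08, Rspo1, a Wnt potentiator of mesothelium, 8.85, 8.34, 8.51 and 10.52, and Il33 9.44, 8.99, 9.59 and 11.21. In each of these 4 genes replicate 4 lay above the whole range of the other 3 arrays. Ligands as a list went both ways, with 17 of 44 above the line highest and 17 lowest in replicate 4. Of the 14 mesothelial markers above the line, 9 were highest in replicate 4 and 9 lowest in replicate 2. Of the 25 collagen maturation genes, 19 were highest in replicate 4. Over all 10080 genes above the line, 33.7% were highest in replicate 4 and 2440 lowest in replicate 2. The list medians in replicate 4 were 0.49 and 0.32, against 0.05 for all genes above the line. P4ha3, a prolyl hydroxylase subunit, read 10.50, 10.86, 11.66 and 12.35. Over all 933 genes with an SD over 0.5, replicate 4 was lowest in 370 and highest in 370. The part of the interferon-stimulated genes in these other orders was not tested.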

How the data were processed

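Total RNA of 4 siCTRL samples was hybridised to Affymetrix mouse gene ST arrays. The deposited values are log2 values that the authors made with Affymetrix Power Tools (GC correction, intensity scaling and RMA at the core gene level); the tool's version and the genome build are not given in the sources used here. Of 41345 probe sets, 23521 carried exactly 1 symbol and were averaged to 22180 genes; 17824 were left out. Means and SDs over the 4 arrays were computed with Python 3.11.15, pandas 2.3.3 and numpy 2.4.6. The 95th percentile of odorant receptor genes (6.77) was the background line and the brightest 10% were called bright. No groups are compared and no difference was tested; lone arrays were looked for with Dixon's ratio, and 4 arrays limit the precision of each SD. Members and the 39 gene lists were chosen with earlier results of these data known. Of 1185 genes listed, 1099 had a value and 86 were not analysed here. Genes were named if they were key genes of a list, among its 5 highest or 3 lowest members, among the 20 brightest genes, the 20 of largest SD or the 10 of smallest SD, or called differently under another line; some other list members were named after their values were seen. Alternatives were the brightest probe set, 2 renormalizations, 4 other lines, a per-array line, other measures of spread and leaving out each array. The calculation was tested on simulated data. All columns of per-sample values were matched to a sample by title.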

Additional observations from a re-analysis of the deposited data

Results flagged for a closer look

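For each of 316 genes named above, the gap between the most extreme array and its neighbour was divided by the range of the 4 arrays. In 12 genes (3.8%) this ratio passed Dixon's 95% limit for 4 samples, and chance flags about 1 in 20 groups. Replicate 4 was the lone array in 4 of them. It was lowest for Ccl5 (ratio 0.847), Timp2 (0.853) and Ccn2 (0.849) and highest for Col6a2 (0.885). Replicate 1 was the lone low array for COX1 (0.944), ND4 (0.833), Gnas (0.917), Tgfbr1 (0.878) and Fbln2 (0.831), and replicate 3 was the lone array for Alx4 (0.872, highest), Itga4 (0.831, lowest) and Mfap4 (0.905, lowest). Ccl5 and Ccn2 are the genes of this set in which the lone array changed the level most, with 11.05 against 15.30 to 16.07 for Ccl5 and 8.59 against 9.88 to 10.11 for Ccn2, whereas the 4 values of Gnas lay between 5.49 and 5.61. The interferon-stimulated genes of widest range named above are absent from this set, and in them replicate 2 lay between replicate 4 and the other arrays.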

How the results depend on the processing

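The count of genes above the background line was 10180 with the brightest probe set per gene, 10080 with median centring, 10068 with quantile normalization, 9975 to 10105 without 1 array, 8089 and 13596 with the 99th and 75th percentile of odorant receptors as the line, 9702 with vomeronasal and taste receptors, 13308 with the 40th percentile of all genes and 9361 when each array had to pass its own line, against 10080 as reported. The count of genes with an SD over 0.5 (933) was 986, 965 and 937 under the first 3 of these, 667 to 1214 without 1 array, lowest without replicate 4, 1327 for a range above 1 and 1834 for an SD over 0.4, a looser limit. Of 39 lists, 11 changed their count above the line by over 1.5 times with the 75th percentile, 10 with the 40th, 6 with the 99th and at most 1 under any other alternative. The cholangiocyte, adipocyte, Hox and G protein-coupled receptor counts are among those that changed with the 99th percentile. The cholangiocyte count, 2 as reported, was 1 without replicate 1 and with vomeronasal and taste receptors, and 0 with per-array lines. Of 599 gene means, 35 moved by more than their SD with the brightest probe set and none under the other alternatives. Msln was at background with the 99th percentile and with per-array lines. No paired analysis was possible because only 1 group is described. A dark probe set limits every statement on a gene at background: with 4 arrays and no spike-in, low RNA and a poor probe set cannot be told apart.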

Other observations

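Genes annotated as microRNA hosts or precursors formed a group that the report does not describe. Of 483 measured, 140 were above the background line, a smaller share than the 45.4% of all genes. Mir5099 read 19.16, 19.53, 19.60 and 19.25 and was among the 20 brightest genes, and Mir703 read 16.95, 17.14, 17.12 and 16.90. Both were stable between the arrays. The labelling used here reads long RNA, so these values are those of probe sets placed at precursor loci and not of mature microRNAs.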
